A study of Mus musculus with 6 samples.

Results

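A set of 9 marker genes of the striatum, the forebrain nucleus that lies under the cerebral cortex, were followed through 6 RNA sequencing libraries of mouse cerebral cortex. They are Drd1, Drd2, Adora2a, Gpr6, Ppp1r1b, Rgs9, Pde10a, Six3 and Rarb, taken as a named list by gene symbol. All 9 were among the 49315 genes in the files, and all 9 passed the filter on low counts that left 17185 genes to be tested. The 3 shFabp7 libraries came from wild type mice given AAV-PHP.eB-Gfap-GFP-shFABP7, and the 3 shScr libraries from wild type mice given AAV-PHP.eB-Gfap-GFP-shScr, a vector with a scramble sequence that silences no gene. AAV-PHP.eB is a viral capsid that reaches the brain from the blood in mice, and the Gfap promoter drives the short hairpin RNA mainly in astrocytes, so the knockdown was not aimed at the neurons that carry the markers described here. In both groups the vector was injected behind the eye at an age of 21 days. Both also received LPS, a lipopolysaccharide of bacterial walls that provokes an inflammatory response, as 3 weekly injections of 1 mg/kg begun at 4 months, and the cortex was collected 24 h later. No group without LPS or without vector was analysed here.

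Most neurons of the striatum are spiny projection neurons, which release GABA and receive dopamine from the midbrain and glutamate from the cortex. Those of the direct pathway carry the dopamine D1 receptor, which raises cyclic AMP, and those of the indirect pathway carry the dopamine D2 receptor, which lowers it, together with the adenosine receptor of Adora2a, which raises it. Both kinds hold large amounts of the proteins that pass on or end the cyclic AMP signal. Some of the same genes are also used at lower levels in the cortex, Drd1 and Ppp1r1b among them, so a cortical library is not expected to lack them.

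The stretches of DNA before the start sites of 3 members are shown because they differ in the kind of regulatory sequence they hold. Rarb codes for a receptor of retinoic acid and is known as a target of retinoic acid itself, Gpr6 codes for a receptor that raises cyclic AMP, and Drd2 has a promoter rich in G and C. Each is 250 bases long, ends at the base before a RefSeq start site of build GRCm38.p6, and is written 5′ to 3′ on the strand of the gene, with motif matches in capitals. Rarb is at chr14:16575477-16575726 on the minus strand, Gpr6 at chr10:41072291-41072540 on the minus strand and Drd2 at chr9:49340153-49340402 on the plus strand.
Rarb: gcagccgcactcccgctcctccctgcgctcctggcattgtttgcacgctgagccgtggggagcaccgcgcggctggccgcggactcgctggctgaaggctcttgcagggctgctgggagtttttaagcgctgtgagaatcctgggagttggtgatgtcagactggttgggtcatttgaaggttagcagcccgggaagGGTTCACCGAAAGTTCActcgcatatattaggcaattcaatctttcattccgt
Gpr6: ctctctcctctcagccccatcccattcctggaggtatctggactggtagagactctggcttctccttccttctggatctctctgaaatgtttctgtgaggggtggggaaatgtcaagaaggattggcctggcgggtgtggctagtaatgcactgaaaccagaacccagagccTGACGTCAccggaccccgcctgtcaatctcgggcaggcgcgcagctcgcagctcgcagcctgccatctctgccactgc
Drd2: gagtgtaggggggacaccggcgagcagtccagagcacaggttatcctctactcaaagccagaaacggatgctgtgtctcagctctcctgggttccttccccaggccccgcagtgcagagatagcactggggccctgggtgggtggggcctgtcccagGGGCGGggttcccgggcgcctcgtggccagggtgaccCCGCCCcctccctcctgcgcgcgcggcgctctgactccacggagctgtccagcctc
The capitals in Rarb are a direct repeat, GGTTCA followed after 5 bases by AGTTCA, the spacing known from retinoic acid receptor binding, at positions -53 to -37 from the start site. This repeat stood in 2 of 32851 RefSeq windows of the same length (0.00609%). The search took only these exact letters, the ones in Rarb, so other forms of the repeat are not counted in that share. The capitals in Gpr6 are TGACGTCA, the cyclic AMP response element, at -78 to -71, which 508 windows held (1.55%). The capitals in Drd2 are GGGCGG, the GC box, once on the gene's strand from -93 and once on the other strand from -56. GC boxes stood in 10756 windows (32.7%) and in 4 of the 9 windows of the members. Both strands were searched for every motif, the motifs do not overlap one another in these windows, and a match describes the letters only. RefSeq windows were matched for 7 of the 9 members, and Adora2a and Ppp1r1b are named only.

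None of the 9 striatal markers differed between the shFabp7 and shScr libraries beyond the spread within the groups, and in every member the highest library of each group was the same one. Summed over the 9 genes, the markers took 503, 399 and 1249 CPM (reads scaled to a common library size) in shFabp7 libraries 1, 2 and 3, against 972, 419 and 570 CPM in shScr libraries 1, 2 and 3. The high libraries were thus shFabp7 library 3 and shScr library 1. In edgeR's quasi-likelihood test 0 of the 9 members passed an adjusted p of 0.05, where 20 of 17185 genes did (0.116%, 10 higher and 10 lower in shFabp7). At an unadjusted p under 0.05 edgeR also counted 0 of 9, against 16.8% of all genes tested. DESeq2 called 0 of 9 against 4.12% of genes, and limma-voom 0 of 9 against 0.634%. The groups overlapped in all 9, whereas they did not overlap for 22.9% of all genes tested. The log2 fold change was above 0 in 3 members and below 0 in 6, with a median of -0.14 beside -0.0065 over all genes. In bulk tissue, fewer cells of a type and less RNA per cell cannot be told apart.

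Total counts ran from 16914012 to 18991235 per library, and the members were read 22 to 9047 times per library. Fabp7, the gene the hairpin targets, had 5.56, 2.49 and 3.52 CPM in shFabp7 libraries, against 26.3, 15.2 and 15.8 CPM in shScr libraries. Every shFabp7 library lay under every shScr library, with a log2 fold change of -2.31 (SE 0.35), and the adjusted p was 0.0704 in edgeR, 3.44e-12 in DESeq2 and 0.0424 in limma-voom. All 12 cortical excitatory neuron markers were read in all 6 libraries, among them Slc17a7, a vesicular glutamate transporter of cortical neurons, at 991 CPM or more in each.

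**Figure D1:**
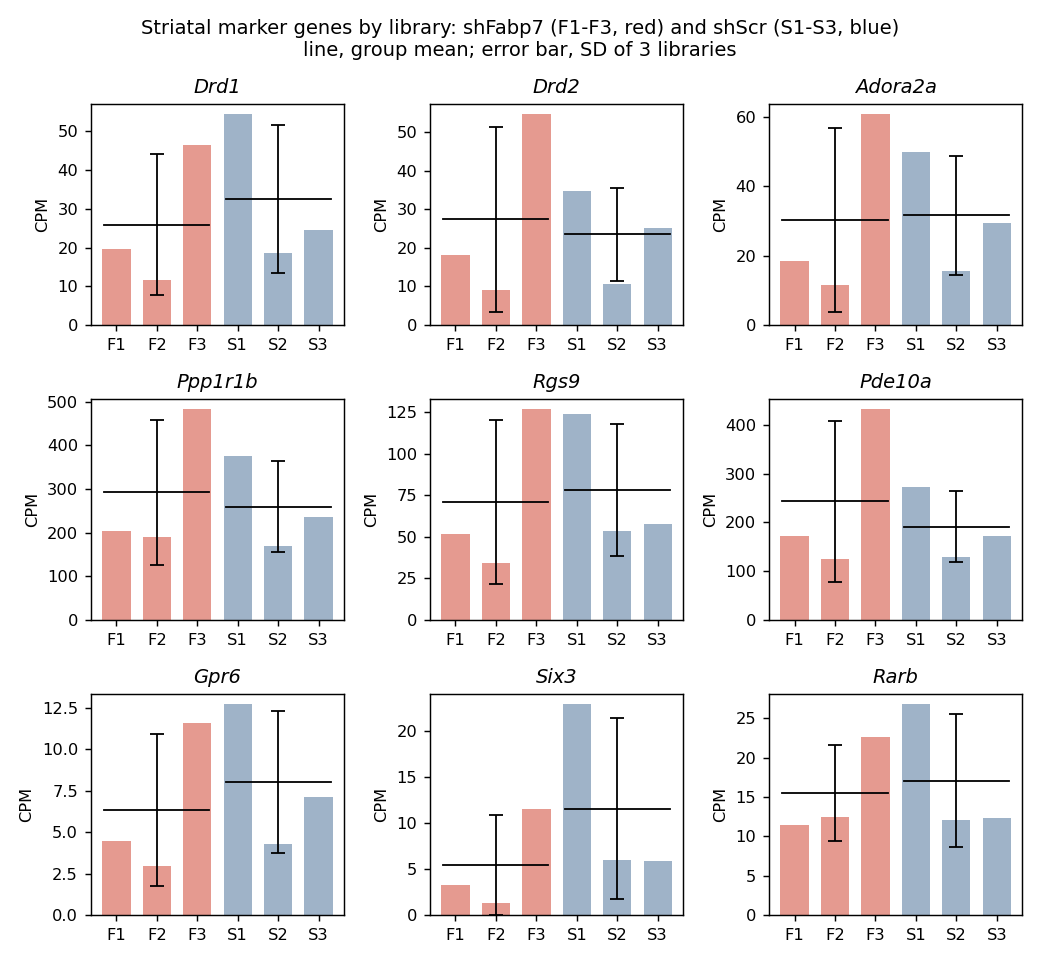
CPM of the 9 striatal marker genes (y axis, linear from 0) in each library (x axis), with shFabp7 libraries 1 to 3 as F1 to F3 in red, shScr libraries 1 to 3 as S1 to S3 in blue, and a black line with error bar for the mean and SD of each group. F3 and S1 are the highest pair in all 9 panels, so the groups overlap everywhere.

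The dopamine receptors showed this library pattern first. Drd1 (ENSMUSG00000021478, chr13:54051186-54055658), the D1 receptor of direct pathway neurons, had 19.7, 11.7 and 46.4 CPM in shFabp7 libraries 1, 2 and 3, against 54.4, 18.7 and 24.4 CPM in shScr libraries 1, 2 and 3. These rest on 329, 192 and 870 reads in shFabp7 libraries, and 1000, 351 and 448 reads in shScr libraries. The shScr library 1 was the highest of all and shFabp7 library 2 the lowest, with the other shScr libraries inside the shFabp7 range. Drd1 averaged 25.9 ± 18.2 CPM in shFabp7 libraries and 32.5 ± 19.2 CPM in shScr libraries (SD, n = 3 each). Its log2 fold change was -0.32 (SE 0.72, 95% interval -2.25 to 1.61, adjusted p = 0.867 in edgeR), so the interval holds both a fall and a rise of more than 1 log2 unit.

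Drd2 (ENSMUSG00000032259, chr9:49340627-49408177), the D2 receptor of indirect pathway neurons, also used by cholinergic interneurons and dopamine neurons, had 18.2, 9.18 and 54.6 CPM in shFabp7 libraries, against 34.7, 10.6 and 25.2 CPM in shScr libraries. Here shFabp7 library 3 was the highest, and the shFabp7 values lay on both sides of all 3 shScr values. Drd2 averaged 27.3 ± 24.0 CPM in shFabp7 libraries and 23.5 ± 12.1 CPM in shScr libraries (SD, n = 3 each), which gave a log2 fold change of 0.23 (SE 0.84, 95% interval -2.04 to 2.497, adjusted p = 0.926 in edgeR). Within the shFabp7 group alone its highest library was 5.95 times its lowest.

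Adora2a (ENSMUSG00000020178, chr10:75316943-75334788), the adenosine receptor that shares indirect pathway neurons with Drd2, had 18.6, 11.5 and 60.9 CPM in shFabp7 libraries, against 49.8, 15.6 and 29.5 CPM in shScr libraries. The order of the 6 libraries was that of Drd2. The means were 30.3 ± 26.7 CPM in shFabp7 libraries and 31.7 ± 17.2 CPM in shScr libraries (SD, n = 3 each), with a log2 fold change of -0.05 (SE 0.82, 95% interval -2.27 to 2.17, adjusted p = 0.985 in edgeR).

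Gpr6 (ENSMUSG00000046922, chr10:41069977-41072285), the receptor with the cyclic AMP response element shown above and also a gene of indirect pathway neurons, had 4.48, 2.98 and 11.6 CPM in shFabp7 libraries, against 12.7, 4.31 and 7.09 CPM in shScr libraries. It was read 49 to 217 times in shFabp7 libraries and 81 to 234 times in shScr libraries. Gpr6 in shFabp7 library 3 was 0.910 times that in shScr library 1, on 217 and 234 reads, where for Adora2a this ratio was 1.22. Its log2 fold change was -0.33 (SE 0.66, 95% interval -2.02 to 1.36, adjusted p = 0.849 in edgeR), from means of 6.35 ± 4.60 CPM in shFabp7 libraries and 8.05 ± 4.29 CPM in shScr libraries (SD, n = 3 each).

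Among the genes that act after the receptors, Ppp1r1b was the most abundant. Ppp1r1b (ENSMUSG00000061718, chr11:98348404-98357796) codes for DARPP-32, a protein that inhibits protein phosphatase 1 once protein kinase A has phosphorylated it. It had 204, 190 and 483 CPM in shFabp7 libraries, against 375, 169 and 236 CPM in shScr libraries. The lowest library was shScr library 2 here, not shFabp7 library 2 as in most members, and the 4 lower libraries lay between 169 and 236 CPM. The means were 292 ± 165 CPM in shFabp7 libraries and 260 ± 105 CPM in shScr libraries (SD, n = 3 each), with a log2 fold change of 0.17 (SE 0.53, 95% interval -1.26 to 1.60, adjusted p = 0.910 in edgeR). Its exons share 460 bases with the antisense gene 1700003D09Rik, which had 40 to 139 reads. No source used here gives the strand setting behind the counts, so reads of the pair may be mixed.

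Pde10a (ENSMUSG00000023868, chr17:8525372-8986648), the phosphodiesterase that breaks down cyclic AMP and cyclic GMP in spiny neurons of both pathways, had 171, 126 and 432 CPM in shFabp7 libraries, against 272, 129 and 172 CPM in shScr libraries. It had the highest fold change of the 9 at 0.35 (log2, SE 0.61, 95% interval -1.29 to 1.99, adjusted p = 0.825 in edgeR). That value rests on shFabp7 library 3, since the other 2 shFabp7 libraries were within or under the shScr range. Pde10a averaged 243 ± 165 CPM in shFabp7 libraries and 191 ± 73.2 CPM in shScr libraries (SD, n = 3 each).

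Rgs9 (ENSMUSG00000020599, chr11:109225355-109298129), a regulator that shortens signalling through Gi and Go proteins downstream of the D2 receptor, had 51.9, 34.2 and 127 CPM in shFabp7 libraries, against 124, 53.4 and 57.5 CPM in shScr libraries. The 2 high libraries were nearly level, shFabp7 library 3 at 1.02 times shScr library 1. In the means, 70.9 ± 49.1 CPM in shFabp7 libraries stood beside 78.3 ± 39.7 CPM in shScr libraries (SD, n = 3 each), which gave a log2 fold change of -0.14 (SE 0.66, 95% interval -1.93 to 1.65, adjusted p = 0.946 in edgeR).

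Both transcription factors had their highest value in shScr library 1. Six3 (ENSMUSG00000038805, chr17:85613608-85629302), a homeobox factor needed for indirect pathway neurons to form and also used in the developing eye and hypothalamus, had 3.29, 1.34 and 11.6 CPM in shFabp7 libraries, against 23.0, 5.96 and 5.84 CPM in shScr libraries. In shFabp7 library 3 it stood at 0.504 of its level in shScr library 1, the lowest such ratio of the 9, and shFabp7 libraries 1 and 2 lay under all 3 shScr libraries. Six3 had the lowest fold change of the 9 at -1.08 (log2, SE 1.02, 95% interval -3.79 to 1.63, adjusted p = 0.655 in edgeR), from means of 5.40 ± 5.44 CPM in shFabp7 libraries and 11.6 ± 9.85 CPM in shScr libraries (SD, n = 3 each). The lowest count of Six3 was 22 reads. Its exons share 106 bases (1.95%) with the antisense gene Six3os1, which had 12 to 315 reads. They share 168 bases (3.08%) with Gm28528, which had 0 to 7 reads, so part of the Six3 reads could belong to those.

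Rarb (ENSMUSG00000017491, chr14:16430842-16575472), the retinoic acid receptor with the repeat shown above, had 11.5, 12.5 and 22.6 CPM in shFabp7 libraries, against 26.8, 12.1 and 12.3 CPM in shScr libraries. The 4 lower libraries, 2 of each group, lay within 11.5 to 12.5 CPM. Rarb varied least of the 9, with its highest library 2.34 times its lowest, against 17.2 times for Six3. Its log2 fold change was -0.14 (SE 0.45, 95% interval -1.30 to 1.03, adjusted p = 0.917 in edgeR), with means of 15.5 ± 6.14 CPM in shFabp7 libraries and 17.1 ± 8.43 CPM in shScr libraries (SD, n = 3 each). Over the 9 members the exact two-sided permutation test on CPM gave p from 0.5 to 1.0, where 3 against 3 libraries cannot go below 0.1.

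Per kilobase of exon length (RPKM, from the lengths in the files), Ppp1r1b was the highest member, Pde10a the next and Six3 the lowest in each of the 6 libraries. Ppp1r1b stood at 99.8 ± 56.4 RPKM in shFabp7 libraries and 88.7 ± 35.7 RPKM in shScr libraries, and Pde10a at 19.3 ± 13.1 RPKM in shFabp7 libraries and 15.2 ± 5.81 RPKM in shScr libraries (SD, n = 3 each). Adora2a, Rgs9, Drd2 and Drd1 followed, with means between 7.35 and 11.96 RPKM in shFabp7 libraries and between 9.22 and 12.5 RPKM in shScr libraries. Below them came Rarb and Gpr6, and Six3 had 0.992 ± 0.999 RPKM in shFabp7 libraries and 2.13 ± 1.81 RPKM in shScr libraries. Except between Ppp1r1b and Pde10a, neighbours in this order differed by less than the larger of their SDs in both groups.

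The spread of these genes between libraries of one group was far above that of most genes. The within-group SD of log2 CPM had a median of 0.88 over the 9 members, against 0.15 over all genes tested, and ranged from 0.59 for Rarb to 1.33 for Six3. Each member stood between the percentiles 95.4 and 99.8 of all genes in this SD. With such a spread the 95% interval of every fold change held 0, and the narrowest, that of Rarb, ran from -1.30 to 1.03.

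The members moved together from library to library. As the mean of their log2 CPM, each centred on its own 6-library mean, they stood at -0.40, -0.99 and 0.98 in shFabp7 libraries 1, 2 and 3, and at 0.94, -0.50 and -0.03 in shScr libraries 1, 2 and 3. The highest pair was shFabp7 library 3 and shScr library 1 in 9 of 9 members, with shFabp7 library 3 first in 5 and shScr library 1 first in 4. That pair was the highest in 1094 of the 17185 genes tested (6.37%), a pattern looked for after the values had been seen. The third place went to shScr library 3 in 7 members, and the lowest to shFabp7 library 2 in 7.

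The direction of the fold change turned with the library left out in every member except Six3, which stayed below 0. Without shFabp7 library 3, all 9 log2 fold changes were below 0, with a median of -0.86 and a range of -2.32 for Six3 to -0.36 for Pde10a. Without shScr library 1, 8 of 9 were above 0, with a median of 0.36, and only Six3 stayed below at -0.10. Leaving out shFabp7 library 1 gave 6 above 0 and 3 below (median 0.05), and leaving out shFabp7 library 2 gave 7 above and 2 below (median 0.19). Leaving out shScr library 2 gave 1 above and 8 below (median -0.35), and leaving out shScr library 3 gave 3 above and 6 below (median -0.32). With both high libraries left out, a choice made after the values were seen, all 9 were below 0 with a median of -0.38. In that fit of 2 against 2 libraries edgeR called 0 of 9 at an adjusted p of 0.05, 1 had an unadjusted p under 0.05, and the lowest adjusted p was 0.218, for Six3.

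**Figure D2:**
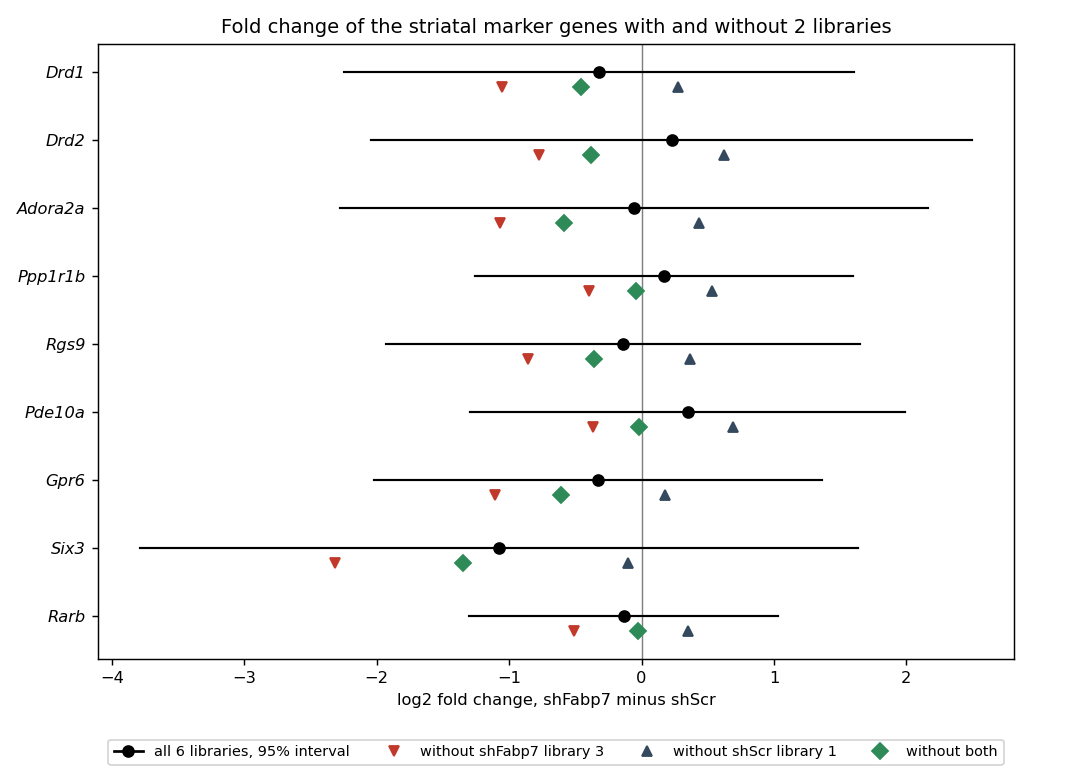
Log2 fold change, shFabp7 minus shScr, of each striatal marker gene (x axis) for all 6 libraries (black point with its 95% interval), without shFabp7 library 3 (red triangle), without shScr library 1 (dark triangle) and without both (green diamond). Every black interval crosses 0, all red triangles lie below 0, and all dark triangles except that of Six3 lie above it.

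Ratios between members within a library do not depend on its size. Drd1 to Drd2, a direct to an indirect pathway receptor, was 1.08, 1.27 and 0.850 in shFabp7 libraries 1, 2 and 3, against 1.57, 1.76 and 0.972 in shScr libraries 1, 2 and 3. The 2 high libraries differed, at 0.850 (95% exact counting interval 0.776 to 0.932) in shFabp7 library 3 and 1.57 (1.42 to 1.74) in shScr library 1, yet shScr library 3 lay within the shFabp7 range. Means were 1.07 ± 0.211 in shFabp7 libraries and 1.43 ± 0.409 in shScr libraries (SD, n = 3 each, exact permutation p = 0.3, adjusted p = 0.571 over 8 ratios).

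Among the indirect pathway genes themselves, Drd2 to Adora2a was 0.981, 0.799 and 0.897 in shFabp7 libraries, against 0.695, 0.680 and 0.852 in shScr libraries (exact permutation p = 0.2, adjusted p = 0.571). Gpr6 to Adora2a ran from 0.190 to 0.259 in shFabp7 libraries and from 0.240 to 0.276 in shScr libraries. Across libraries whose Adora2a level differed 5.29-fold, this ratio thus moved less than 1.5-fold. For Pde10a to Ppp1r1b, the ratio was 0.838, 0.662 and 0.894 in shFabp7 libraries, against 0.726, 0.761 and 0.731 in shScr libraries, and the shScr values lay inside the shFabp7 range.

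Six3 to Drd1 was 0.167, 0.115 and 0.249 in shFabp7 libraries, against 0.422, 0.319 and 0.239 in shScr libraries (exact permutation p = 0.2, adjusted p = 0.571). The groups overlapped through shFabp7 library 3 and shScr library 3, and counting intervals also overlapped between shFabp7 library 1 and shScr library 3 and between shFabp7 library 3 and shScr library 2. Rarb to Drd1 was highest in shFabp7 library 2 at 1.07, where Drd1 was lowest, and lay between 0.486 and 0.650 in the other 5 libraries. Rgs9 to Ppp1r1b ran from 0.180 to 0.262 in shFabp7 libraries and from 0.244 to 0.331 in shScr libraries, and Drd1 to Adora2a from 0.763 to 1.06 in shFabp7 libraries and from 0.828 to 1.19 in shScr libraries. None of the 8 ratios had an exact permutation p under 0.2, and the intervals cover counting error only.

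**Figure D3:**
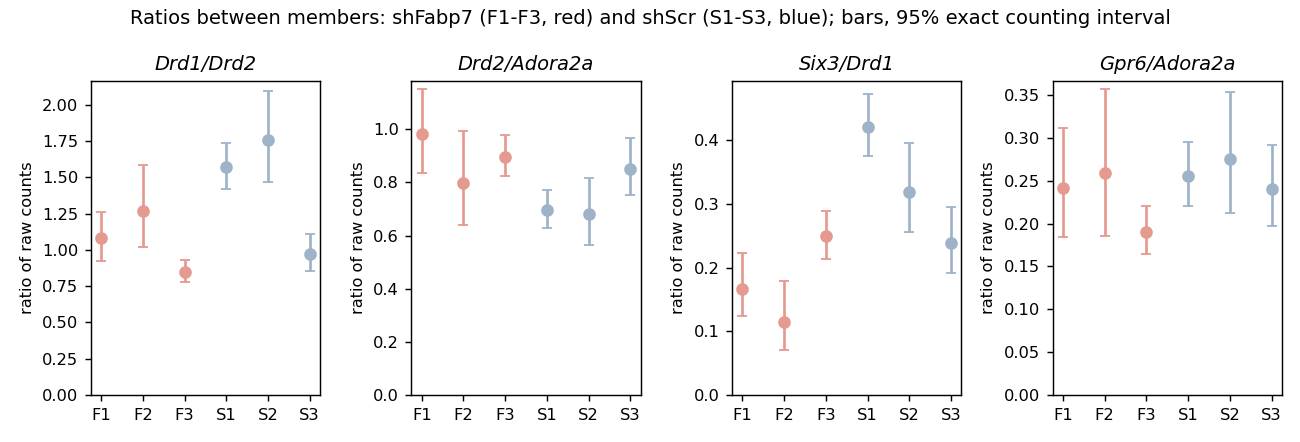
Ratios of raw counts between striatal marker genes (y axis, from 0) in shFabp7 libraries 1 to 3 (F1 to F3, red) and shScr libraries 1 to 3 (S1 to S3, blue), with 95% exact counting intervals as bars. Six3 to Drd1 is 0.249 in F3 and 0.422 in S1, the libraries with the most striatal marker RNA, and Gpr6 to Adora2a lies between 0.190 and 0.276 in all 6.

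Likeness of profile was measured as the root-mean-square difference between centred log2 CPM values over the 6 libraries. Drd1, Gpr6 and Rgs9 lay nearest to the mean of the members, at 0.1001, 0.107 and 0.111, and Six3 farthest, at 0.656. The median over the 15663 other genes with a mean of at least 1 CPM was 0.748. Among the other genes nearest to the members' mean were Penk (0.179), the enkephalin precursor of indirect pathway neurons, then Dach1 (0.214), Lrp8os2 (0.220), Rxrg (0.227), Serpina9 (0.247), Gng7 (0.249), Dlx6 (0.275), Sh3rf2 (0.277) and Asic4 (0.279). Penk had 75.6, 54.9 and 206 CPM in shFabp7 libraries, against 262, 88.7 and 131 CPM in shScr libraries, the order of libraries in Drd1 except that shFabp7 library 1 and shScr library 2 changed places. Rxrg, a retinoid X receptor gene, had 12.3, 5.29 and 23.2 CPM in shFabp7 libraries, against 23.8, 7.87 and 15.0 CPM in shScr libraries.

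Except for Rgs9 and Six3, each single member had a nearest gene closer to it than Penk was to the members' mean (0.179). Syndig1l lay 0.0721 from Drd2, with 23.4, 12.3 and 71.6 CPM in shFabp7 libraries, against 43.9, 12.9 and 35.7 CPM in shScr libraries. Penk was the nearest gene to both Drd1 (0.146) and Gpr6 (0.108). For Adora2a the nearest was Sh3rf2 (0.138), for Rgs9 Serpina9 (0.199) and for Rarb Scube3 (0.133). Six3 stood apart: its nearest genes were Slc5a7 (0.327) and Chat (0.336), the choline transporter and the acetylcholine-making enzyme of cholinergic neurons. The second nearest were Lrp8os2 for Drd1 and Gpr6 (0.164 and 0.200), Gpr139 for Drd2 and Adora2a (0.254 and 0.227), Olfr1393 for Ppp1r1b (0.137), Ptprv for Pde10a (0.189), Dlx6 for Rgs9 (0.217) and Arhgef33 for Rarb (0.144). These distances describe 6 libraries and carry no test.

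For the lists of related genes that follow, the counts past the threshold are edgeR's, and most genes that DESeq2 or limma-voom called at an adjusted p under 0.05 are named beside them, chosen for those calls after their values were seen. The signalling partners of the members followed the same pair of libraries in smaller steps. Of 16 tested genes of cyclic AMP and Golf signalling in spiny neurons, 0 passed the edgeR threshold in either direction, 8 fold changes were above 0 and 8 below, and the median was 0.02. At an unadjusted p under 0.05 edgeR counted 1, and DESeq2 called Rgs7bp higher (adjusted p = 0.00676), against 0.0979 in edgeR. The highest pair was shFabp7 library 3 and shScr library 1 in 13 of the 16. Adcy5, the adenylyl cyclase of spiny neurons, had 253, 206 and 432 CPM in shFabp7 libraries, against 420.0, 219 and 285 CPM in shScr libraries (log2 fold change -0.05, adjusted p = 0.968 in edgeR). Arpp21, a protein kinase A substrate that is also abundant in cortex, had 394, 335 and 486 CPM in shFabp7 libraries, against 505, 385 and 426 CPM in shScr libraries (log2 fold change -0.11, adjusted p = 0.759 in edgeR).

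Neuropeptides of spiny neurons leaned more on shScr library 1. All 4 tested were below 0 with a median log2 fold change of -0.76, 0 passed in edgeR, DESeq2 or limma-voom or had an unadjusted p under 0.05 in edgeR, and all 4 were highest in shScr library 1. Pdyn, the dynorphin precursor of direct pathway neurons, had 27.3, 27.4 and 34.3 CPM in shFabp7 libraries, against 55.7, 34.7 and 21.99 CPM in shScr libraries, where shScr library 3 was the lowest of the 6. Its log2 fold change was -0.33 and that of Penk -0.52, with adjusted p of 0.699 and 0.775 in edgeR. Other genes of the direct pathway (6 tested) and of the indirect pathway (5 tested) had 0 past the threshold in edgeR, DESeq2 and limma-voom and 0 at an unadjusted p under 0.05 in edgeR, with medians of -0.40 and -0.17. Chrm4, a muscarinic receptor of direct pathway neurons, had a log2 fold change of -0.35 and Sfxn1, listed with them, -0.10, while in the indirect pathway list Grik3 had 0.16 and Gucy1a1, a subunit of soluble guanylyl cyclase, -0.17.

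Channel and scaffold genes of spiny neurons had 0 of 8 past the threshold in edgeR, 1 at an unadjusted p under 0.05, and a median log2 fold change of 0.07. Scn4b, a sodium channel beta subunit, had 165, 200 and 348 CPM in shFabp7 libraries, against 161, 114 and 124 CPM in shScr libraries. All 3 shFabp7 libraries were above all 3 shScr libraries in Scn4b, which none of the 9 members showed, and edgeR gave an adjusted p of 0.308 (log2 fold change 0.84, SE 0.34). Ngef, a guanine nucleotide exchange factor, had 353, 381 and 377 CPM in shFabp7 libraries, against 241, 291 and 250 CPM in shScr libraries (log2 fold change 0.51, SE 0.08, adjusted p = 0.0562 in edgeR, 2.74e-05 in DESeq2 and 0.0247 in limma-voom). Ngef did not follow the striatal pair of libraries, since shFabp7 library 3 was its second highest and shScr library 1 its lowest.

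Striatal transcription factors had 0 of 11 tested past the threshold in edgeR, 2 at an unadjusted p under 0.05, a median log2 fold change of -0.20, and the high pair on top in 5. Meis2 had a log2 fold change of 0.19 and Bcl11b, also a factor of deep cortical layers, -0.21. DESeq2 called Foxp1, a factor of both striatum and cortex, higher (log2 fold change 0.48, adjusted p = 0.0206), against an adjusted p of 0.189 in edgeR. Retinoid receptors and enzymes, the system Rarb belongs to, had 0 of 12 past the threshold in edgeR, 7 at an unadjusted p under 0.05 and 7 with groups that did not overlap, beside 16.8% and 22.9% of all genes, with a median of -0.26. Of these DESeq2 called Aldh1a1 higher (log2 fold change 0.65, adjusted p = 0.00896) and Aldh1a2 lower (log2 fold change -0.97, adjusted p = 0.0102), both of them enzymes that make retinoic acid, against adjusted p of 0.187 and 0.125 in edgeR. Rxrb had 81.3, 77.4 and 78.0 CPM in shFabp7 libraries, against 65.8, 69.5 and 66.9 CPM in shScr libraries (log2 fold change 0.23, adjusted p = 0.119 in edgeR), and Rxra had a log2 fold change of 0.15. The 8 genes of the adenosine system, which supplies the ligand of Adora2a, and the 7 tested of dopamine synthesis, transport and other receptors had 0 past the threshold in edgeR and 1 each at an unadjusted p under 0.05, with medians of -0.19 and -0.25. Adora1, another adenosine receptor, had a log2 fold change of 0.42 and Adk, adenosine kinase, 0.12, while Maoa, which breaks down dopamine, had -0.25. DESeq2 called Drd3, another dopamine receptor gene that did not pass the edgeR filter, lower (adjusted p = 0.0138).

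Markers of neighbouring tissue also differed between libraries, and for each list the values stand here beside the striatal ones. Of the 6 genes of striatal cholinergic interneurons, which other cholinergic neurons of the basal forebrain also use, 5 were tested, 0 passed in edgeR, DESeq2 or limma-voom or had an unadjusted p under 0.05 in edgeR, and the median log2 fold change was -1.31. Their summed level was 8.43, 3.10 and 17.7 CPM in shFabp7 libraries, against 49.5, 9.84 and 10.3 CPM in shScr libraries, and Gbx2 was at 0 in all 3 shFabp7 libraries and in shScr library 2. Slc5a7 had a log2 fold change of -1.04 and Chat of -1.31. The sum was highest in the same 2 libraries as for the members, and shScr library 1 exceeded shFabp7 library 3 by more than in any of the 9. Its part in the striatal values was not tested.

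Hypothalamic markers separated the 2 high libraries. Their summed level over 8 genes was 5.80, 4.56 and 6.03 CPM in shFabp7 libraries, against 105, 14.7 and 5.18 CPM in shScr libraries, so shFabp7 library 3 was near the low libraries and shScr library 1 stood alone. Avp, the vasopressin gene, had 0.837, 0.304 and 0.214 CPM in shFabp7 libraries, against 38.9, 4.89 and 0.491 CPM in shScr libraries, and Trh 1.49, 0.365 and 1.49 CPM in shFabp7 libraries, against 21.4, 2.82 and 1.04 CPM in shScr libraries. Of the 6 tested, 0 passed in edgeR, 1 had an unadjusted p under 0.05, and the median log2 fold change was -2.35. DESeq2 called Avp lower (adjusted p = 0.0265), against 0.318 in edgeR and 0.622 in limma-voom. Oxt, chosen after its values were seen, had 0 reads in shScr library 3. Their part in the striatal values was not tested.

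The sum of the cortical excitatory neuron markers was lowest in shScr library 1. Summed over 12 genes they took 3875, 4291 and 3564 CPM in shFabp7 libraries, against 2039, 3303 and 3094 CPM in shScr libraries. All 12 fold changes were above 0 with a median of 0.51, 0 passed the edgeR threshold, 2 had an unadjusted p under 0.05, and 5 of the 12 had every shFabp7 library above every shScr library, where 22.9% of all genes had groups that did not overlap. DESeq2 called Cux2 and Rorb, both of upper and middle cortical layers, higher (log2 fold changes 0.64 and 0.58, adjusted p of 0.0031 and 0.0352), against adjusted p of 0.184 and 0.222 in edgeR. Slc17a7 had 1565, 1536 and 1283 CPM in shFabp7 libraries, against 991, 1327 and 1383 CPM in shScr libraries. Nrgn, a calmodulin-binding protein of cortical neurons, had 1297, 1608 and 1294 CPM in shFabp7 libraries, against 477, 1010 and 950.0 CPM in shScr libraries. In shFabp7 library 3, where the striatal sum was the highest, the cortical sum was thus 1 of the 3 highest. Whether the amount of cortical RNA plays a part in the striatal levels was not tested.

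Hippocampal markers went their own way. Their sum was 161, 149 and 166 CPM in shFabp7 libraries, against 232, 178 and 296 CPM in shScr libraries, highest in shScr library 3. In edgeR 0 of 8 tested passed, with a median log2 fold change of -1.02. At an unadjusted p under 0.05 edgeR counted 3 of the 8, beside 16.8% of all genes. The groups did not overlap in 4 of the 8, beside 22.9% of all genes. Zbtb20 and Prox1 had log2 fold changes of -0.39 and -0.52. DESeq2 called 3 hippocampal markers lower, where it called 4.12% of all genes in either direction. Among them were C1ql2 and Zbtb20 (adjusted p of 5.37e-13 and 0.0255), against 0.076 and 0.131 in edgeR. In edgeR, septal and pallidal markers had 0 of 8 past the threshold (2 at an unadjusted p under 0.05) and a median of -0.41 (Dgkg -0.54, Lhx6 -0.13), and thalamic markers 0 of 8 (1 unadjusted) and -0.01 (Slc17a6 -1.09, Plekhg1 0.21). Choroid plexus and ependymal markers had 0 of 7 (3 unadjusted, beside 16.8% of all genes) and a median of -0.55 (Enpp2 0.44, Foxj1 -0.55). DESeq2 called Enpp2 higher (adjusted p = 0.0192, against 0.166 in edgeR). GABAergic interneuron markers had 0 of 8 (2 unadjusted) and a median of -0.09, with Gad1 at -0.08 and Gad2, which spiny neurons also express, at -0.61. Against the sign of that median, DESeq2 called Pvalb and Npy higher (log2 fold changes 0.76 and 0.55, adjusted p of 0.00612 and 0.0334), against adjusted p of 0.245 and 0.217 in edgeR. Markers of oligodendrocytes (6 tested), microglia (5), astrocytes (6) and endothelium (5) had 0 past the threshold in edgeR and medians between -0.09 and 0.07. At an unadjusted p under 0.05 edgeR counted 0, 1, 4 and 1 of them, beside 16.8% of all genes. The groups did not overlap in 4 of the 6 astrocyte genes, beside 22.9% of all genes. Of those 6 genes, 2 fold changes were above 0 and 4 below. Gfap, the astrocyte filament gene whose promoter drives the hairpin, was called lower by DESeq2 and limma-voom (DESeq2 log2 fold change -0.78, adjusted p of 2.04e-07 and 0.0434), against 0.0597 in edgeR, and DESeq2 called Flt1 higher (adjusted p = 0.0388, against 0.110 in edgeR). Log2 fold changes of abundant genes among them were 0.14 (Mbp), -0.07 (Csf1r), 0.18 (Slc1a2) and -0.16 (Slc1a3), and 0.31 (Flt1) and 0.17 (Slco1a4).

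**Figure D4:**
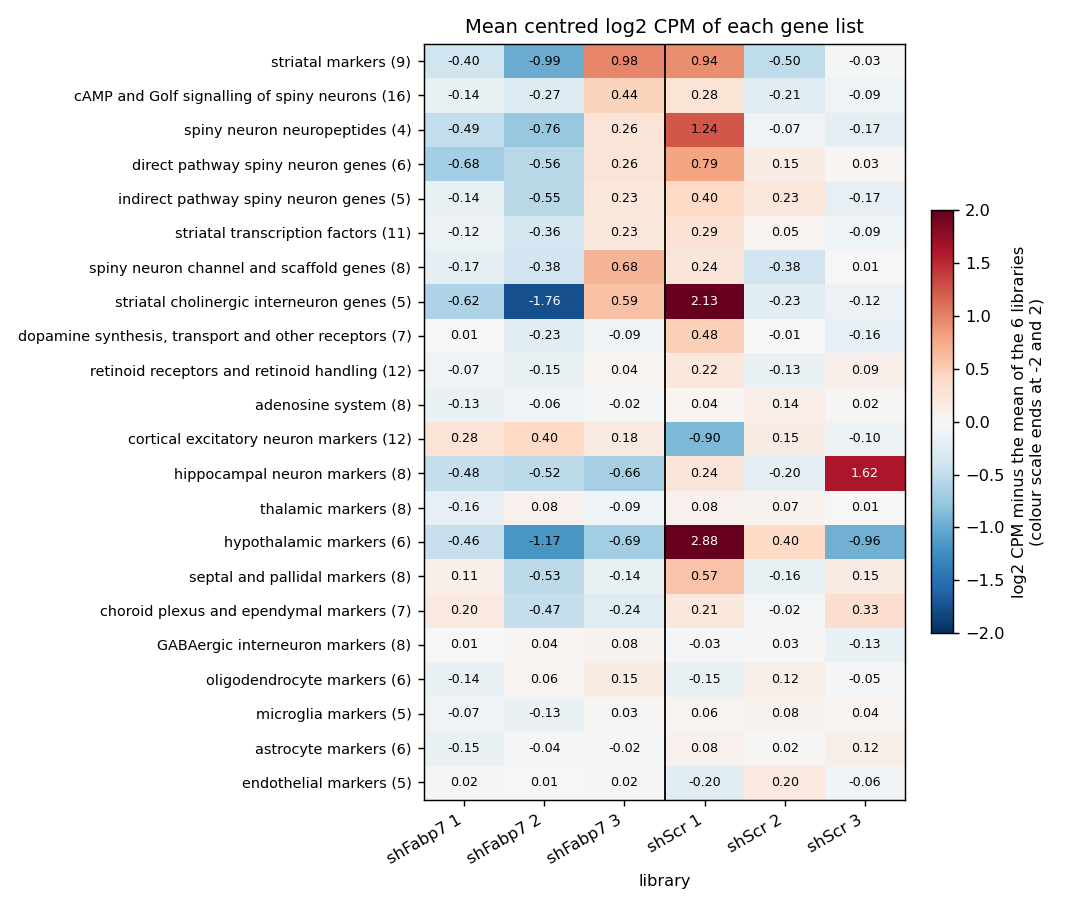
Mean centred log2 CPM of each gene list (rows) in shFabp7 libraries 1 to 3 and then shScr libraries 1 to 3 (columns), with the value in each cell and colour for its sign and size. The striatal marker row reads 0.98 in shFabp7 library 3 and 0.94 in shScr library 1, while the hypothalamic row reads -0.69 and 2.88 in those libraries.

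The labels give no sex. By Xist and Y-linked genes the libraries were male in shFabp7 library 1 and shScr libraries 1 and 2, and female in shFabp7 libraries 2 and 3 and shScr library 3. The high pair thus held 1 female library, shFabp7 library 3, and 1 male library, shScr library 1. Among males, 1 shFabp7 library against 2 shScr libraries, all 9 differences in mean log2 CPM were below 0, with a median of -0.65. That male comparison includes the high shScr library 1. The members' mean centred log2 CPM was 0.94 in shScr library 1 and -0.50 in shScr library 2, with shFabp7 library 1 at -0.40, between them. Among females, 2 shFabp7 libraries against 1 shScr library, 4 were above 0 and 5 below, with a median of -0.07. With sex as a term in edgeR the median log2 fold change was -0.14 and 0 of 9 members passed, so the call was the same as without it.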

How the data were processed

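Per the labels' protocols, RNA was extracted with TriReagent, and 0.5 µg went into each Illumina stranded mRNA library. Each deposited file gives gene positions, exon lengths and whole-number read counts that have not been normalized, per the file headers in featureCounts format. Trimmomatic 0.36, STAR 2.5.2b, Subread 1.5.2 and DESeq2, with build GRCm39, are listed without roles in the submitters' processing notes. However, of 49056 gene IDs found in GENCODE M21, 44823 (91.4%) had the same position there, so coordinates are read as GRCm38. Groups and replicate numbers came from the sample titles. Since no label ties each sample to its own animal, p-values reflect only how these samples vary, which may in part be technical. Xist and Y-linked genes read both sexes in each group, so the libraries of a group did not all come from the same animal.

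Genes were filtered with filterByExpr, scaled by TMM factors and tested with edgeR 4.0.16 in R 4.3.3 (robust quasi-likelihood, group alone, two-sided), with Benjamini-Hochberg adjustment over all 17185 genes and calls at 0.05. Fold changes are given as shFabp7 minus shScr on the log2 scale. CPM and RPKM use TMM scaling, and log2 CPM a prior count of 2. Alternatives were DESeq2 1.42.0, limma-voom (limma 3.58.1) with quality weights, RLE and upper-quartile factors, no filter or one of 1 CPM in 3 libraries, a replicate block, sex as a covariate, and libraries left out. Scripts were tested on simulated data.

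The members and lists were chosen with earlier results of these data known. The rule for named genes took the members, Fabp7, every list gene past the threshold or otherwise the 2 most abundant, and the genes nearest in profile. A few genes the rule names are not reported here. Others were chosen after their values were seen. Promoter windows came from RefSeq (GRCm38.p6).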

Additional observations from a re-analysis of the deposited data

How the results depend on the processing

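In edgeR, DESeq2 and limma-voom and under every scaling, filter, block, covariate and left-out library, 0 of 9 striatal markers passed. Over all genes the count of calls moved from 20 to 700 with DESeq2, 1617 without the filter, 109 with limma-voom, 7 with sex as a covariate, 38 without both shFabp7 library 3 and shScr library 1, and 0 (without shFabp7 library 2 or 3) to 900 (without shScr library 2) with one library left out. The cause was not tested. With the replicate block 629 genes were called and 0 of 9 members. Deviations of same-numbered libraries correlated at 0.13, 0.21 and 0.081, and 5 of the 6 libraries, all but shFabp7 library 3, correlated best with their own number. These values do not settle whether same-numbered libraries share more than a number, and the labels name no pairing. The main test was fitted on group alone, without the block.

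With one library left out, log2 fold changes ran from -1.05 to 0.28 for Drd1, -0.77 to 0.64 for Drd2, -1.07 to 0.44 for Adora2a, -0.40 to 0.53 for Ppp1r1b, -0.86 to 0.36 for Rgs9, -0.36 to 0.69 for Pde10a, -1.10 to 0.17 for Gpr6, -2.32 to -0.10 for Six3 and -0.51 to 0.35 for Rarb, and their median from -0.86 to 0.36. Without both high libraries, an alternative added after the data were seen, as was the sex covariate, Drd2 had -0.38, Ppp1r1b -0.039 and Pde10a -0.020, all 3 reversed. Rarb reversed to 0.057 under limma-voom. RLE and upper-quartile factors, DESeq2, both filters, the block and the sex covariate kept the direction of all 9. The members were read 22 to 9047 times per library.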

Other observations

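Drd3, the dopamine D3 receptor gene of the ventral striatum and its islands, was named after its values were seen and did not pass the filter for edgeR. It had 1, 1 and 0 reads in shFabp7 libraries 1, 2 and 3, against 60, 14 and 1 reads in shScr libraries 1, 2 and 3, the counts behind its DESeq2 call (adjusted p = 0.0138). Thus shFabp7 library 3, with 46.4 CPM of Drd1 and 54.6 CPM of Drd2, had no read of Drd3, while shScr library 1, with 54.4 CPM of Drd1 and 34.7 CPM of Drd2, had the most. Isl1, a factor of direct pathway and cholinergic neurons also chosen after its values were seen, had 0.299, 0.365 and 2.14 CPM in shFabp7 libraries, against 10.7, 2.71 and 1.42 CPM in shScr libraries (log2 fold change -2.35, adjusted p = 0.378 in edgeR).

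In shFabp7 library 2, read as female at 769 CPM of Xist, Y-linked genes summed to 13.6 CPM, against 1.92 CPM in shFabp7 library 3 and 1.47 CPM in shScr library 3, the other female libraries.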
